A study of Macaca mulatta with 12 samples.

Results

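Heat shock proteins and molecular chaperones were examined as a set of 42 genes, taken as every probe set other than a control whose annotation gave exactly one of these symbols. The array carried 39 of the 42 genes on 70 probe sets, out of 11963 genes and 22283 probe sets in all. HSPA8, the constitutive cytosolic HSP70, and TCP1, a subunit of the TRiC/CCT chaperonin, each had 3 probe sets that named several genes and were not analysed here, and AHSA1, an activator of HSP90, was not measured by a probe set of its own. The 39 genes divided into 26 cytosolic, 10 endoplasmic reticulum and 3 mitochondrial chaperones. HSPA1L, HSPB2, DNAJB6 and DNAJC3 lay below the filter on low values, so that 35 genes on 56 probe sets were tested.

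Chaperones bind unfolded protein and help it to reach or recover its folded state. In the cytosol, HSP70 proteins take up clients from J-proteins (the DNAJA and DNAJB families), release them with the help of nucleotide exchange factors such as the BAG proteins and HSPH1, and pass some of them to HSP90, while the ring-shaped TRiC/CCT chaperonin folds actin and tubulin. The reticulum has its own HSP70 (HSPA5, also called BiP), its own HSP90 (HSP90B1), the lectin chaperones calnexin and calreticulin (CANX, CALR) and protein disulfide isomerases (PDIA3, PDIA4, PDIA6), and mitochondria fold imported protein with HSPA9 and the HSPD1 and HSPE1 chaperonin. Neurons depend on these systems for the protein traffic to their axons and dendrites, and the small heat shock protein CRYAB is known in brain mainly from glia.

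The samples were total RNA of single layers of the lateral geniculate nucleus (LGN), the thalamic relay from retina to visual cortex, from rhesus macaques (Macaca mulatta) deprived of vision through 1 eye. Each of the 6 layers was taken once on the ipsilateral and once on the contralateral side, 1 array each. The labels gave layers 2, 3 and 5 of the ipsilateral side and layers 1, 4 and 6 of the contralateral side as deprived (6 arrays), and the opposite layers as non-deprived (6 arrays), all from monocularly deprived animals, and no sample was labelled as coming from an undeprived animal. From textbook anatomy, layers 1 and 2 are magnocellular (4 arrays) and layers 3 to 6 parvocellular (8 arrays). Age, length and means of deprivation, number of animals and the layers that shared an animal are not stated in the labels. Replicates are therefore different layers and sides, the p-values measure the spread between these arrays, which may be partly technical, and where arrays shared an animal the p-values are too small for statements about animals.

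Levels are scaled intensities of a human expression array hybridized with macaque RNA, and all 39 symbols also occur in the macaque gene tables. A level was compared only between arrays within 1 probe set. A change is given on the log2 scale ± its standard error, from a limma fit with deprivation, cell class and hemisphere as terms, and its adjusted p is Benjamini-Hochberg adjusted over all 11105 probe sets tested. The threshold was an adjusted p under 0.05. Unless a second probe set is mentioned, a gene is represented by its probe set with the highest mean.

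Several measures of the arrays moved with the groups. On the ipsilateral side the GAPDH control ratio of 3′ to 5′ signal, a measure of RNA integrity and labelling, averaged 6.14 ± 3.37, against 3.20 ± 0.72 on the contralateral side (SD, n = 6 each), and the median intensity averaged 586 ± 83.4, against 468 ± 39.7. The ACTB ratio averaged 46.4 ± 15.1 on magnocellular arrays (n = 4) and 25.7 ± 8.78 on parvocellular arrays (n = 8). By side it averaged 39.7 ± 17.0 ipsilaterally and 25.5 ± 7.90 contralaterally. Deprived layers had a GAPDH ratio of 5.51 ± 3.70, against 3.83 ± 1.30 in non-deprived layers (n = 6 each). Their median intensity averaged 554 ± 101, against 500 ± 71.2. The highest GAPDH ratios, 11.0 and 9.38, were on deprived ipsilateral layers 5 and 2. The array of deprived ipsilateral layer 2 had the lowest mean correlation with the others, 0.868, against 0.897 to 0.934 elsewhere. Of the markers of other cells, 7 of 7 oligodendrocyte, 7 of 7 astrocyte, 5 of 5 microglial, 6 of 7 vascular and 3 of 3 interneuron genes tested were higher in deprived layers, and 7 of 8 genes of relay and other neurons were lower there. The summed oligodendrocyte level lay between 62469 and 145744 in deprived layers, against 59367 to 103635 in non-deprived layers, and the summed astrocyte level between 75770 and 120810, against 49789 to 87812. The summed neuronal marker level lay between 296835 and 392825 in deprived layers, against 373967 to 432223 in non-deprived layers, and no marker was listed at 0. In bulk tissue, fewer cells of a type and less RNA per cell cannot be told apart.

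Deprived layers were compared with non-deprived layers to ask which chaperone transcripts follow the deprivation of 1 eye. None of the 56 member probe sets passed the threshold, where 0.063% of all probe sets tested did. The direction was mostly downward: 27 of the 35 genes (77.1%) were lower in deprived layers, with a median log2 change of -0.16, whereas 46.9% of all 7285 genes tested were lower, with a median of 0.02. Centring each array on its median gave the members a median of -0.30 (30 of 35 lower), and omitting both arrays with the top GAPDH ratios gave -0.061 (26 of 35 lower). Over all genes, 67% were lower with centring (median -0.11) and 49.9% with that omission (median 0.0005). At an unadjusted p under 0.05 stood 7 member probe sets (12.5%), against 12% of all probe sets, which is near the background. With 1 probe set per gene, 1 of the 35 was higher and 3 lower at such a p, against 6.09% of all genes higher and 6.3% lower. The smallest adjusted p of a member was 0.164, for BAG3. With the oligodendrocyte marker level as a covariate, 28 of the 35 were lower, against 49.8% of all genes, and the part of the other markers was not tested.

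BAG3, a nucleotide exchange factor that links HSP70 clients to autophagy, was lower in deprived layers at each of the 6 layers. Its intensity was 1162.9, 1744.1, 1196.9, 1089, 1407 and 1147.1 in deprived layers 1 to 6, against 2386.7, 2652.8, 1724.7, 1503.9, 1738.3 and 1838.1 in non-deprived layers 1 to 6. All deprived layers but layer 2 lay below the lowest non-deprived layer, and the groups overlapped. The change was -0.60 ± 0.16 (0.658-fold, adjusted p = 0.164 by limma), and it was -0.49 ± 0.19 in parvocellular layers alone, on 8 arrays. STUB1 (CHIP), the ubiquitin ligase that marks chaperone clients for degradation, ranged over 1300 to 2574.7 with a median of 1815.25 in deprived layers, against 1940.6 to 3143.4 with a median of 2531.35 in non-deprived layers. It was lower in all 6 layers, by a change of -0.46 ± 0.18 (adjusted p = 0.328), and its groups overlapped. BAG1, another exchange factor of HSP70, lay between 2288.8 and 4086.9 with a median of 3309.1 in deprived layers, against 3450.8 to 4598.6 with a median of 4381.15 in non-deprived layers. It was likewise lower in all 6 layers (-0.34 ± 0.15, adjusted p = 0.393), and its second probe set gave -0.35.

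The cytosolic HSP70 and HSP90 machines were lower in deprived layers for 6 of their 7 tested genes, none past the threshold. HSP90AA1, the inducible cytosolic HSP90, had intensities of 41320.3 to 73747.8 with a median of 66706.6 in deprived layers, against 53068.8 to 89256.5 with a median of 75010.4 in non-deprived layers (-0.23 ± 0.13, adjusted p = 0.519). Its 4 tested probe sets did not agree: a second one gave -0.53 ± 0.21 (adjusted p = 0.331) and the other two 0.18 and 0.09. HSP90AB1, the constitutive form, had 9132.6 to 29630.1 in deprived layers, against 15815.2 to 26960.3 in non-deprived layers (-0.29 ± 0.18, adjusted p = 0.567). HSPH1, an HSP110 that also acts as an exchange factor, had medians of 12050.6 in deprived and 16451.3 in non-deprived layers (-0.25 ± 0.20, adjusted p = 0.673). HSPA2, a further HSP70, was the exception, with medians of 2886 in deprived and 2548.4 in non-deprived layers (0.19 ± 0.18, adjusted p = 0.726).

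Among J-proteins, DNAJB4 was the member with the smallest p of those higher in deprived layers. Its intensity was 1509.9, 1742.4, 1102.2, 1695.8, 2161.6 and 1242.1 in deprived layers 1 to 6, against 916.3, 1337.9, 1089.8, 1080.6, 908.2 and 1171.8 in non-deprived layers 1 to 6. It was higher in all 6 layers, with overlapping groups (0.52 ± 0.19, 1.43-fold, adjusted p = 0.315), but its second probe set gave -0.08 ± 0.39. DNAJA1 had medians of 4642.3 in deprived and 4202.75 in non-deprived layers (0.18 ± 0.16, adjusted p = 0.716), and the change was 0.061 without non-deprived layer 1. DNAJB1, the stress-induced partner of HSP70, had medians of 2790.8 in deprived and 3069.85 in non-deprived layers (-0.11 ± 0.15, adjusted p = 0.834), so the J-proteins were divided, 2 higher and 2 lower.

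By their probe sets with the highest mean, all 7 TRiC/CCT subunits and all 3 mitochondrial chaperones tested were lower in deprived layers. None of these changes passed the threshold. CCT2, HSPA9 and HSPD1 each also had a tested probe set of the opposite sign. The TRiC/CCT changes ran between -0.35 for CCT7 and 0.00 for CCT5, with a median of -0.20. By layer, the number of the 7 subunits that were lower in the deprived sample was 1, 7, 7, 1, 6 and 4 in layers 1 to 6, and the TRiC/CCT score, a mean of centred log2 values, was higher in the deprived sample by 0.30 in layer 1 and 0.68 in layer 4. The deprived sample was ipsilateral in layers 2, 3 and 5 and contralateral in the others. Without the 2 arrays of highest GAPDH ratio, 5 of the 7 subunits were lower, with a median of -0.061, and with that ratio as a covariate 6 were, with a median of -0.12. HSPE1, the lid of the mitochondrial chaperonin, had 5371.5 to 9157.2 with a median of 7224.3 in deprived layers, against 6986.6 to 10852.4 with a median of 8391.95 in non-deprived layers (-0.29 ± 0.16, adjusted p = 0.484). HSPD1, the barrel of that chaperonin, had medians of 23330.7 in deprived and 27250.4 in non-deprived layers (-0.11 ± 0.12, adjusted p = 0.78). The HSPD1 and HSPE1 genes are neighbours in the macaque annotation, with 0 coding genes between them.

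The reticulum chaperones were lower in deprived layers for 6 of 9 tested genes. CANX, the membrane-bound lectin chaperone, ranged over 29105.6 to 36478.1 with a median of 32097.2 in deprived layers, against 33652 to 42662.9 with a median of 37200.1 in non-deprived layers. It was lower in all 6 layers by a small change, -0.22 ± 0.11 (adjusted p = 0.42), while its other two probe sets gave -0.18 and 0.30. CALR, its soluble relative, had medians of 4620.85 in deprived and 5635.15 in non-deprived layers (-0.33 ± 0.21, adjusted p = 0.58). HSPA5 had medians of 3576.85 in deprived and 3874.15 in non-deprived layers (-0.27 ± 0.25, adjusted p = 0.715), and HSP90B1 of 678.55 and 768.5 in the same groups (-0.10 ± 0.27, adjusted p = 0.918). DNAJB9, a J-protein induced by reticulum stress, differed in direction, with medians of 2310.95 in deprived and 1931.6 in non-deprived layers (0.26 ± 0.16, adjusted p = 0.55), and its second probe set gave 0.63 ± 0.23 (adjusted p = 0.298).

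**Figure D1:**
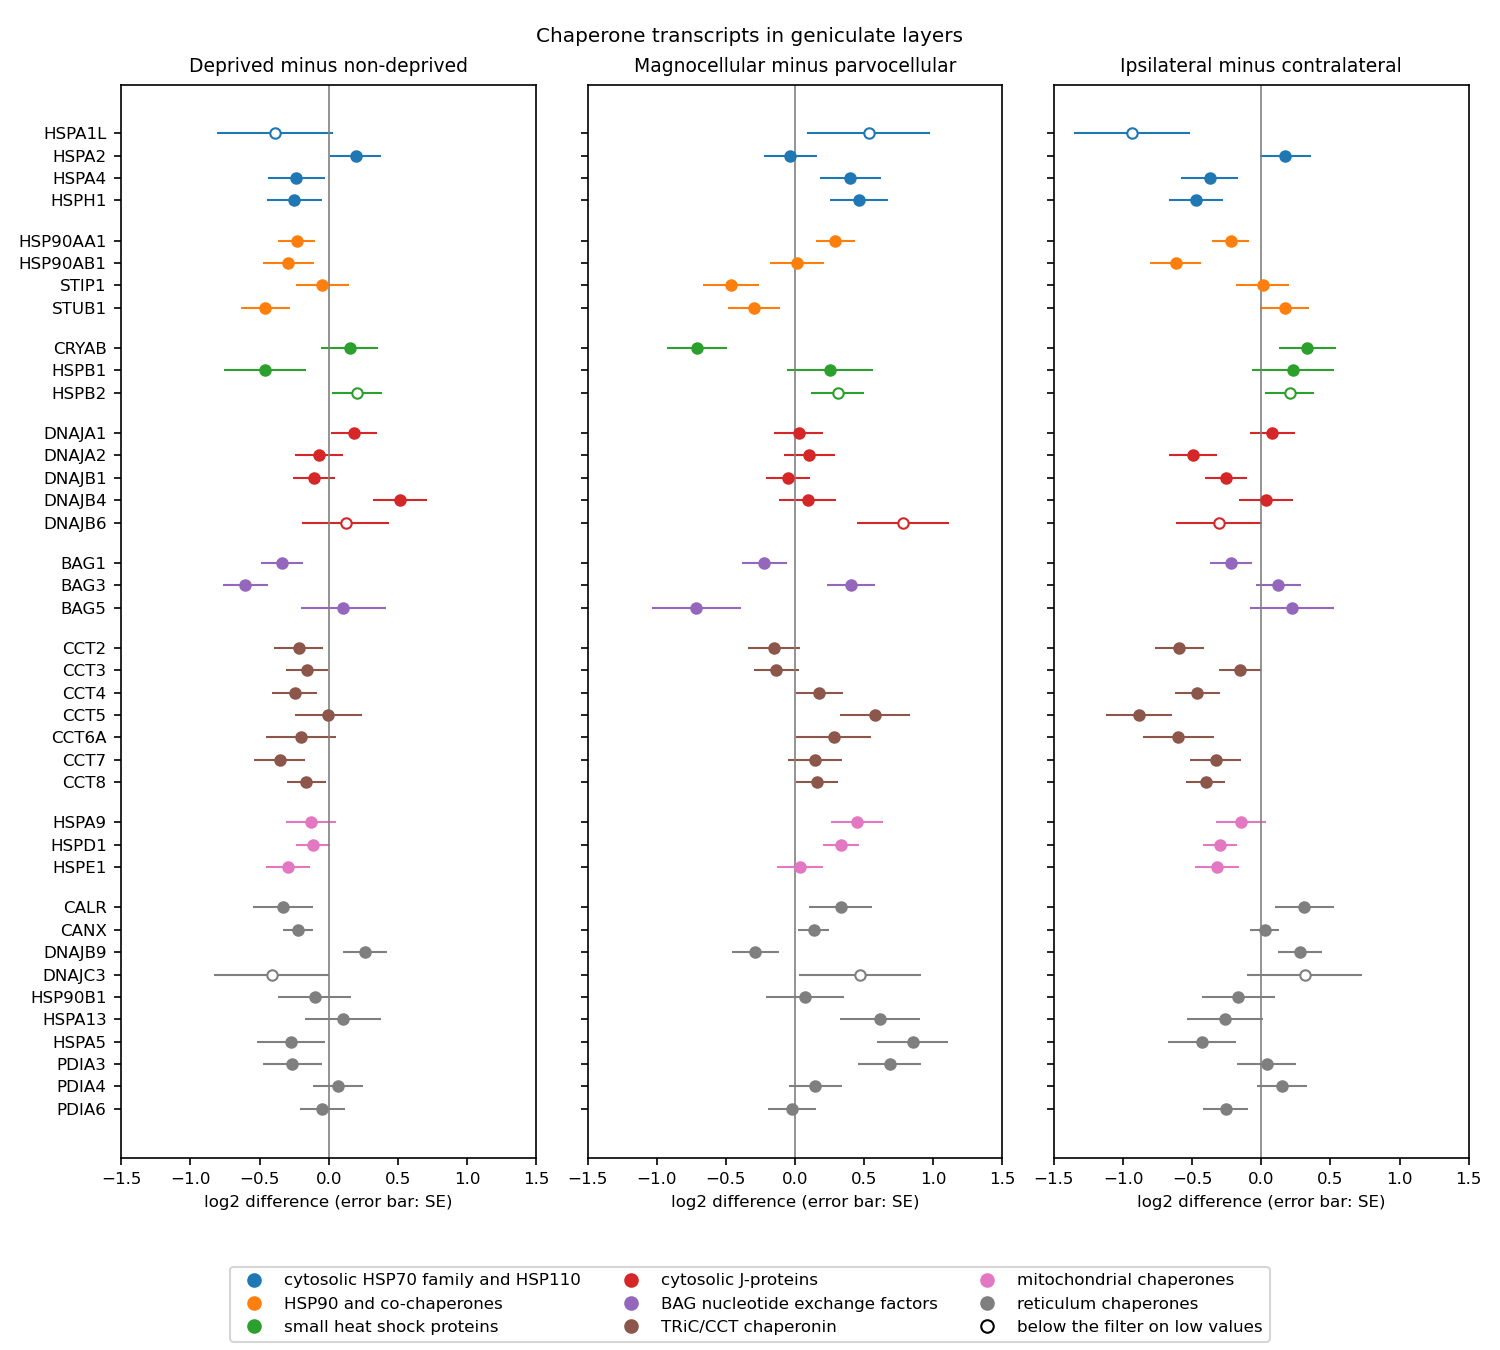
Log2 difference (horizontal axis) with its standard error for the 39 chaperone genes measured, by role, in the deprived minus non-deprived, magnocellular minus parvocellular and ipsilateral minus contralateral comparisons, with open circles for the 4 genes below the filter on low values. BAG3 at -0.60 is the lowest point of the deprivation panel, HSPA5 at 0.85 the highest of the cell class panel, and all 7 TRiC/CCT subunits lie left of 0 in the hemisphere panel.

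Magnocellular layers were then compared with parvocellular layers, since the large and small relay cells differ in size and axon. None of the 56 member probe sets passed (0.72% of all probe sets tested did), and the smallest adjusted p of a member, 0.138, belonged to the second probe set of DNAJA1 (0.59 ± 0.17), whose first gave 0.03. At an unadjusted p under 0.05 stood 14 member probe sets (25%, 11 higher and 3 lower in magnocellular layers), against 14.6% of all probe sets. Of the 35 genes, 24 were higher in magnocellular layers, with a median change of 0.14, against a median of -0.06 over all genes, of which 42.4% were higher. The summed level of markers of relay and other neurons was higher in magnocellular layers too, at 384190 to 432223, against 296835 to 383695 in parvocellular layers. Of these 8 marker genes 5 were higher and 3 lower there, with changes from -0.85 to 0.83. With an unadjusted p under 0.05 there were 8 higher and 3 lower genes among the 35, against 5.72% of all genes higher and 8.94% lower.

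Among the 35 tested genes, each by its probe set with the highest mean, the 3 largest upward differences were in reticulum chaperones. HSPA5, the master chaperone of the reticulum, had 7963.8 and 4494 in deprived and 3979.4 and 7275.8 in non-deprived magnocellular layers 1 and 2, against a range of 1383.5 to 5328.8 with a median of 3150.2 over the 8 parvocellular arrays. The classes overlapped because non-deprived layer 6 exceeded 2 of the 4 magnocellular arrays, and the change was 0.85 ± 0.26 (1.80-fold, adjusted p = 0.149). Without non-deprived layer 6 it was 1.00 ± 0.22 and passed the threshold (adjusted p = 0.0353). PDIA3, a disulfide isomerase that works with calnexin and calreticulin, had 4827.1 and 3708.7 in deprived and 7868.6 and 3263.2 in non-deprived magnocellular layers 1 and 2, against 2141.1 to 4049.6 with a median of 2754.65 in parvocellular layers. Its highest value was a single array, non-deprived layer 1, and its change of 0.69 ± 0.23 (adjusted p = 0.188) was 0.42 without that array. Of the 9 reticulum genes tested 7 were higher in magnocellular layers, 3 of them with an unadjusted p under 0.05, the third being HSPA13, an HSP70 of the microsomes (0.62 ± 0.29, adjusted p = 0.336).

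CALR had medians of 5677.5 in magnocellular and 4870.7 in parvocellular layers (0.33 ± 0.23, adjusted p = 0.536), and HSP90B1 of 712.7 and 797.9 in the same classes, with a change of 0.07 ± 0.28. DNAJB9 was lower in magnocellular layers, with 2006.9 and 2049.1 in deprived and 1746.2 and 1983.5 in non-deprived magnocellular layers 1 and 2, against 1662.3 to 3142 with a median of 2310.95 in parvocellular layers (-0.29 ± 0.17, adjusted p = 0.457). HSPD1 had 34511.6, 24091.6, 27569.1 and 29597.6 in the same order of magnocellular layers, against 17810.5 to 27652.3 with a median of 23330.7 in parvocellular layers (0.33 ± 0.13, adjusted p = 0.257). HSPA9, the mitochondrial HSP70, had 8079.5, 4306.6, 5893.8 and 7187.4 in magnocellular layers, against 3516.3 to 5577.1 with a median of 4679.7 in parvocellular layers (0.45 ± 0.19, adjusted p = 0.29). Its change was 0.012 ± 0.30 with the oligodendrocyte marker level as a covariate and 0.29 without deprived layer 1. The marker level itself differed between the classes, so the covariate fit cannot tell marker level and class apart. Deprived layer 2 was the lowest magnocellular array for both genes, and the other 3 lay above all 8 parvocellular arrays for HSPA9. HSPE1 differed by only 0.04 ± 0.17.

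Of the cytosolic chaperones 14 were higher and 9 lower in magnocellular layers. CRYAB, the small heat shock protein alpha-B crystallin, had the smallest p of the members that were lower in magnocellular layers, with 2603.9 and 3069.9 in deprived and 4031.1 and 3642.9 in non-deprived magnocellular layers 1 and 2, against 3932.8 to 10610.5 with a median of 4933 in parvocellular layers. The classes met only where non-deprived layer 1 exceeded deprived layer 4, and the change was -0.71 ± 0.22 (0.611-fold, adjusted p = 0.152). The summed oligodendrocyte marker level was also lower in magnocellular layers, at 59367 to 85361, against 84065 to 145744 in parvocellular layers, with 2 of 7 of these markers past the threshold. With that marker level as a covariate the CRYAB difference was -0.05 ± 0.32, and with the ACTB ratio it was -0.04 ± 0.31. Both covariates themselves differed between the classes, so these fits cannot tell covariate and class apart. Of all 7285 genes, 651 were lower with an unadjusted p under 0.05 without a covariate. That number was 228 with the marker level and 168 with the ACTB ratio. STIP1, which bridges HSP70 and HSP90, had 1362.5, 1130.6, 1962.9 and 1350.2 in magnocellular layers, against 1443.4 to 2514.6 with a median of 1980.6 in parvocellular layers (-0.46 ± 0.20, adjusted p = 0.31). BAG5 had 428.2, 301.6, 737.3 and 386.2 in magnocellular layers, against 347.5 to 1150.9 with a median of 687.85 in parvocellular layers (-0.71 ± 0.32, adjusted p = 0.319), and turned to 0.086 with the ACTB ratio as a covariate.

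BAG3 and HSPH1 were higher in magnocellular layers, with medians of 2065.4 in magnocellular and 1455.45 in parvocellular layers for BAG3 (0.41 ± 0.17, adjusted p = 0.294), and of 18275.6 and 12692 in the same classes for HSPH1 (0.47 ± 0.21, adjusted p = 0.32). HSP90AA1 had medians of 75954.3 in magnocellular and 66684.8 in parvocellular layers (0.29 ± 0.14, adjusted p = 0.359). HSP90AB1 and DNAJB1 differed by 0.01 ± 0.20 and -0.05 ± 0.16. With the ACTB ratio as a covariate the HSPA5 difference was 0.57 ± 0.44, and with the oligodendrocyte markers it was 0.72 ± 0.45. The PDIA3 difference was 0.61 with the first and 0.23 with the second covariate. With the marker covariate 19 of the 35 members were higher in magnocellular layers, while 53.5% of all genes were lower there. Both covariates themselves differed between the classes, so these fits cannot tell covariate and class apart.

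**Figure D2:**
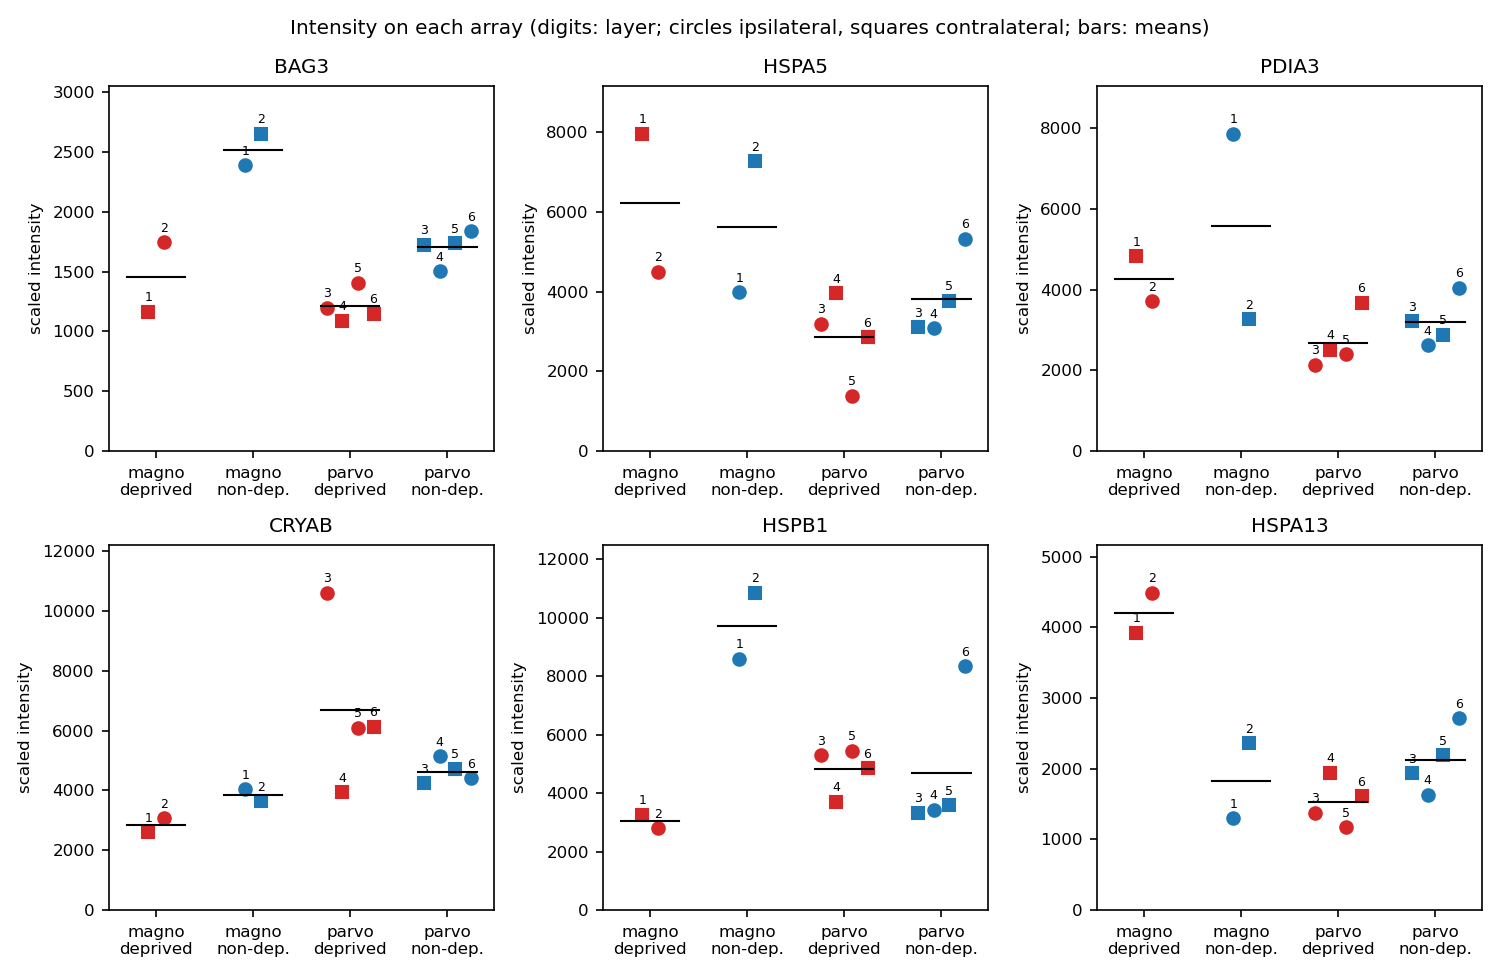
Scaled intensity (vertical axis, linear, from 0) on each of the 12 arrays for BAG3, HSPA5, PDIA3, CRYAB, HSPB1 and HSPA13, with deprived arrays in red left of non-deprived arrays in blue, magnocellular layers left of parvocellular layers, circles for ipsilateral and squares for contralateral samples, digits for the layer and bars for means. The 2 deprived magnocellular arrays lie low for HSPB1 (3262.3 and 2804.1) and high for HSPA13 (3924.8 and 4490).

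The effect of deprivation was next compared between the cell classes, as the interaction of deprivation with class. No member probe set passed the threshold, and neither did any other (0% of 11105). At an unadjusted p under 0.05 were 3 member probe sets (5.36%), against 8.73% of all. HSPB1, the small heat shock protein HSP27, had 3262.3 and 2804.1 in deprived magnocellular layers 1 and 2, against 8604 and 10859.5 in non-deprived magnocellular layers 1 and 2. In parvocellular layers it had 5301.7, 3710.1, 5456.1 and 4851.8 in deprived layers 3 to 6, against 3334.3, 3434.8, 3593.5 and 8345.8 in non-deprived layers 3 to 6. Thus both deprived magnocellular arrays lay below both non-deprived ones, while 3 of 4 parvocellular layers went the other way, and the difference between the deprivation effects was -1.83 ± 0.45 on the log2 scale (adjusted p = 0.381).

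HSPA13 showed the opposite arrangement, with 3924.8 and 4490 in deprived magnocellular layers 1 and 2, against 1295.8 and 2359.9 in non-deprived ones. Its parvocellular values were 1374.8, 1943, 1171.2 and 1609 in deprived layers 3 to 6, against 1937.7, 1628.8, 2191 and 2714.5 in non-deprived layers 3 to 6, and the difference between the effects was 1.74 ± 0.40 (adjusted p = 0.307). Without deprived layer 1 it was 2.01 ± 0.46 and passed (adjusted p = 0.0394), on a fit in which 1.87% of all probe sets passed. In that fit the deprived magnocellular layers are 1 array, layer 2, which had the lowest mean correlation with the others and is assumed to vary like the other groups. CRYAB had an interaction of -0.89 ± 0.39 (adjusted p = 0.542). The values of the whole set of arrays rest on 4 magnocellular arrays, 2 of them deprived.

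Ipsilateral samples were compared with contralateral samples because the side is a term of every fit. None of the 56 member probe sets passed (0.108% of all did). At an unadjusted p under 0.05 were 16 (28.6%), of which 15 were lower and 1 higher on the ipsilateral side, against 20.1% of all probe sets. Counted with 1 probe set per gene, 9 of 35 members were lower with such a p (25.7%) and none higher, against 6.82% of all genes lower and 12.9% higher. The median change of the members was -0.22, against 0.06 over all genes, and 21 of 35 members were lower, against 42.2% of all genes. After quantile normalization, 5 members were lower and 0 higher with an unadjusted p under 0.05, against 546 and 481 of all 7285 genes. With the GAPDH ratio as a covariate, 0 members were lower and 1 higher, against 176 and 214 of all genes. That ratio was itself higher on the ipsilateral side.

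The split between sides depended on how the arrays were scaled. With each array centred on its median, 34 of 35 members were lower on the ipsilateral side, against 75.5% of all genes. The median change of all probe sets was then -0.25, against 0.07 as deposited. After quantile normalization 25 of 35 members were lower ipsilaterally, against 50.6% of all genes. In deprived layers 30 of 35 members were lower with median centring, against 67% of all genes. There the median of all probe sets was -0.11, against 0.03 as deposited. All 7 TRiC/CCT subunits were lower on the ipsilateral side under each of these scalings.

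TRiC/CCT had the lowest median hemisphere change of the 8 role groups, -0.46, and was lower on the ipsilateral side in all 7 subunits. At an unadjusted p under 0.05 were 5 of them, 3 after quantile normalization and 0 with the GAPDH ratio as a covariate. Among markers of other cells, 5 of 5 microglial genes (median change 0.35) and 6 of 7 oligodendrocyte genes (median 0.11) were higher ipsilaterally and none passed the threshold. The summed microglial level lay between 7988 and 15944.8 ipsilaterally, against 7478.2 to 9991.3 contralaterally. With the oligodendrocyte level as a covariate the TRiC/CCT median was -0.47, and the part of the microglial markers was not tested. CCT5 had 1410.7, 2283.4 and 1455.2 in deprived and 2656.9, 1013 and 2233.9 in non-deprived ipsilateral layers. On the contralateral side it had 4560.7, 3527.1 and 2331.6 in deprived and 5373.1, 2300 and 2397.2 in non-deprived layers. It was lower ipsilaterally in all 6 layers, by a change of -0.88 ± 0.24 (0.542-fold, adjusted p = 0.111), and the sides overlapped only through ipsilateral layer 1. CCT2 ranged over 7480 to 13850.1 with a median of 10058 ipsilaterally, against 11186 to 20004.4 with a median of 14003.6 contralaterally, again lower in all 6 layers (-0.59 ± 0.18, adjusted p = 0.124). For its second probe set the change was -0.29. CCT4 had medians of 20014.5 ipsilaterally and 26073.8 contralaterally and was lower in 5 of 6 layers (-0.46 ± 0.16, adjusted p = 0.148). The remaining subunits changed by -0.60 (CCT6A), -0.40 (CCT8), -0.33 (CCT7) and -0.15 (CCT3).

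By layer, the number of the 7 subunits that were lower on the ipsilateral side was 6, 7, 7, 6, 6 and 3 in layers 1 to 6. The group was summarised by a score: each member's log2 intensity was centred on its own mean over the 12 arrays, and the centred values were averaged. The TRiC/CCT score was -0.40, -0.19 and -0.60 in deprived ipsilateral layers 2, 3 and 5, and 0.12, -0.56 and 0.17 in non-deprived ipsilateral layers 1, 4 and 6. On the contralateral side it was 0.42, 0.12 and 0.07 in deprived layers 1, 4 and 6, and 0.27, 0.28 and 0.31 in non-deprived layers 2, 3 and 5. The 3 lowest scores, in ipsilateral layers 5, 4 and 2, were on the 3 arrays with the highest GAPDH ratios, 11.0, 5.65 and 9.38. The ipsilateral difference of the score was -0.49 (residual SD 0.24). It was -0.27 with the GAPDH ratio as a covariate and -0.36 without the 2 arrays of highest ratio, and the CCT5 change was -0.56 ± 0.28 (adjusted p = 0.873) and -0.60 ± 0.24 (adjusted p = 0.364) in those fits.

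**Figure D3:**
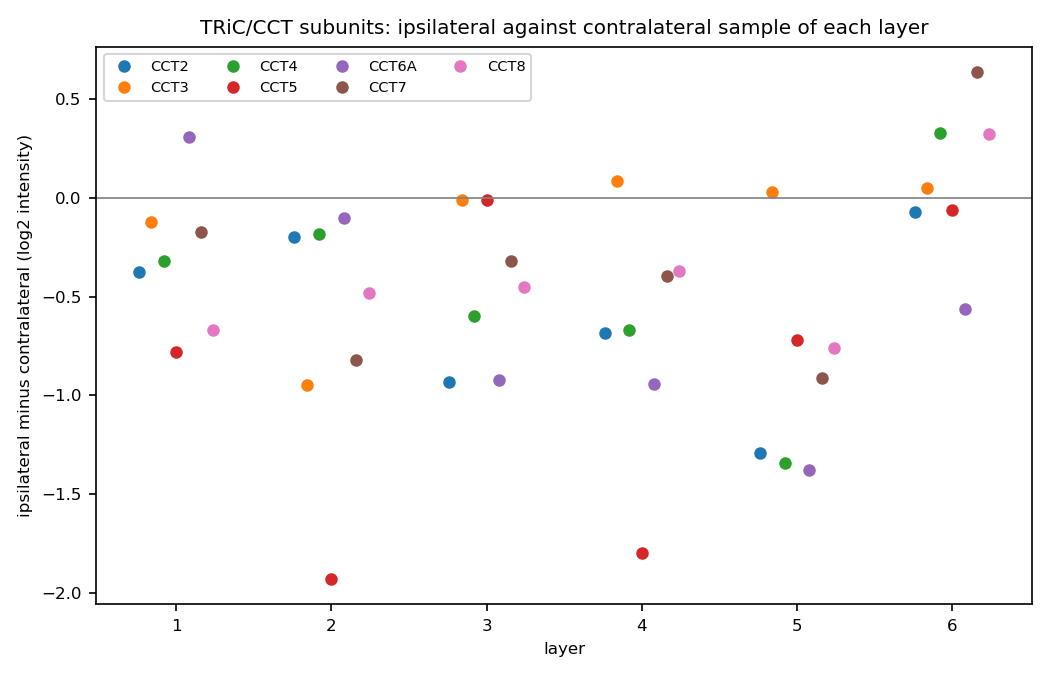
Difference in log2 intensity between the ipsilateral and the contralateral sample (vertical axis) of each layer (horizontal axis) for the 7 TRiC/CCT subunits, 1 coloured point per subunit. Most points lie below 0 in layers 1 to 5, with CCT5 lowest in layers 2 and 4, and only 3 of 7 lie below 0 in layer 6.

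Among the tested members, HSP90AB1 was the cytosolic chaperone outside TRiC/CCT with the smallest p for hemisphere. It ranged over 9132.6 to 22674.7 with a median of 17026 ipsilaterally, against 18423.1 to 29630.1 with a median of 23718 contralaterally (-0.62 ± 0.18, 0.652-fold, adjusted p = 0.123), and its second probe set gave -0.59 ± 0.22. HSPH1 had medians of 12741.4 ipsilaterally and 18168.2 contralaterally (-0.47 ± 0.20, adjusted p = 0.204). DNAJA2, a J-protein, had medians of 2599.05 ipsilaterally and 3780.2 contralaterally (-0.49 ± 0.17, adjusted p = 0.15). HSP90AA1 had medians of 66248.4 ipsilaterally and 71809.2 contralaterally (-0.22 ± 0.13, adjusted p = 0.354), and DNAJB1 of 2646.05 and 3215.7 on the same sides (-0.26 ± 0.15, adjusted p = 0.343). All of these were lower ipsilaterally in 5 of 6 layers. BAG3 differed by 0.12 ± 0.16 between the sides.

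The mitochondrial chaperones were lower ipsilaterally in 3 of 3 genes, with HSPD1 at medians of 21913.9 ipsilaterally and 27292 contralaterally (-0.30 ± 0.12, adjusted p = 0.196) and HSPE1 at 7093.25 and 8838.95 on the same sides (-0.32 ± 0.16, adjusted p = 0.266). HSPA9 also had a tested probe set of the opposite sign. The reticulum chaperones were divided, 5 higher and 4 lower, with a median change of 0.02. CALR was higher ipsilaterally in 5 of 6 layers, with medians of 5677.5 ipsilaterally and 4298.65 contralaterally (0.31 ± 0.21, adjusted p = 0.415), and its other probe sets gave 0.59 and 0.59. That change was 0.13 without deprived layer 5 and 0.52 without non-deprived layer 2. DNAJB9 had medians of 2553.8 ipsilaterally and 1995.2 contralaterally (0.28 ± 0.16, adjusted p = 0.322), CRYAB of 4773.55 and 4082.4 on the same sides (0.33 ± 0.21, adjusted p = 0.367), and HSPA2 of 2852.05 and 2613.8 (0.17 ± 0.18, adjusted p = 0.599). HSPA5 changed by -0.43 ± 0.25 (adjusted p = 0.327) and HSP90B1 by -0.17 ± 0.27. Under median centring the CALR, DNAJB9 and HSPA2 differences were -0.0064, -0.035 and -0.14, each moved by the same offset as the median of all probe sets, so that the sign is set by the scaling.

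Only 1 member probe set separated the sides without overlap, the lowest-mean probe set of PDIA6, a disulfide isomerase. This probe set was chosen for that after its values were seen. It had 413.3, 1211.6 and 1171.1 in deprived and 1183.3, 818 and 1082.5 in non-deprived ipsilateral layers, against 1342 to 1583.8 in contralateral layers. Its change was -0.65 ± 0.23 (adjusted p = 0.148), and 0.423% of all probe sets were lower on the ipsilateral side without overlap. The share that was higher there without overlap was not taken. The gene's probe set with the highest mean gave -0.26 ± 0.16, and its remaining tested probe sets were also lower ipsilaterally.

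Leaving out non-deprived ipsilateral layer 6 moved the hemisphere count to 9 of 56 member probe sets (16.1%), all lower on the ipsilateral side, on a fit in which 7.66% of all probe sets passed. They were both probe sets of HSP90AB1, the highest-mean probe sets of DNAJA2, CCT2, CCT4, CCT5 and CCT8, and the second ones of DNAJA1 and DNAJB4. Over all 12 arrays, the probe sets of DNAJA1 and of DNAJB4 had opposite signs for hemisphere, and the highest-mean ones were higher ipsilaterally. Without non-deprived layer 6, CCT5 changed by -1.01 ± 0.24 (adjusted p = 0.0291 by limma). The array left out had the lowest ipsilateral median intensity, 459.5, against 509.2 to 666.5 on the other ipsilateral arrays and 411.5 to 529.1 contralaterally. Its GAPDH ratio was 2.88, where the ipsilateral arrays ranged over 2.87 to 11.0. The part of array quality in these calls was not tested. For cell class the same omission gave 2 calls, HSPA5 and the second DNAJA1 probe set, where 1.69% of all passed. Leaving out non-deprived ipsilateral layer 4 gave 1, a second probe set of HSP90AA1 (0.684% of all). The deprivation effect was also compared between the sides, a contrast that is the same as that between the eyes of input in this design. No member passed, 6 of 56 probe sets (10.7%) had an unadjusted p under 0.05, against 6.57% of all, and all 6 had a lower deprivation effect ipsilaterally. They included HSPH1 (-0.91 ± 0.34, adjusted p = 0.62), PDIA3 (-0.89 ± 0.38, adjusted p = 0.704) and HSPA2 (-0.77 ± 0.31, adjusted p = 0.69).

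Cytosolic and reticulum chaperones were set side by side through their scores, which are given as descriptions without a test. The scores took in 26 cytosolic and 10 reticulum genes, and so HSPA1L, HSPB2, DNAJB6 and DNAJC3, which lay below the filter on low values. DNAJC3, a reticulum gene with a mean intensity of 180, had deprivation differences from -2.04 in layer 4 to 1.05 in layer 5. Over the alternatives tried, the reticulum difference for deprivation ran between -0.26 and -0.056. For deprivation the cytosolic score differed by -0.13 (residual SD 0.12) and the reticulum score by -0.12 (residual SD 0.12), so that the cytosolic minus reticulum difference was -0.01 (residual SD 0.18). The cytosolic score was lower in the deprived sample of 4 of 6 layers and the reticulum score of 5 of 6. For cell class the reticulum score was 0.28 and 0.14 in deprived and 0.08 and 0.31 in non-deprived magnocellular layers 1 and 2, against -0.27 to 0.15 with a median of -0.11 in parvocellular layers. Its difference was 0.30, against 0.09 for the cytosolic score, and cytosolic minus reticulum was -0.21 (residual SD 0.18). With the ACTB ratio, which itself differed between the classes, as a covariate that last value was -0.017. For hemisphere the cytosolic score was lower ipsilaterally by a difference of -0.22, in 5 of 6 layers, and -0.12 without TRiC/CCT, and the reticulum score differed by 0.00. Within a residual SD lay the reticulum difference for deprivation and hemisphere, the cytosolic difference for cell class and the cytosolic minus reticulum difference for deprivation.

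**Figure D4:**
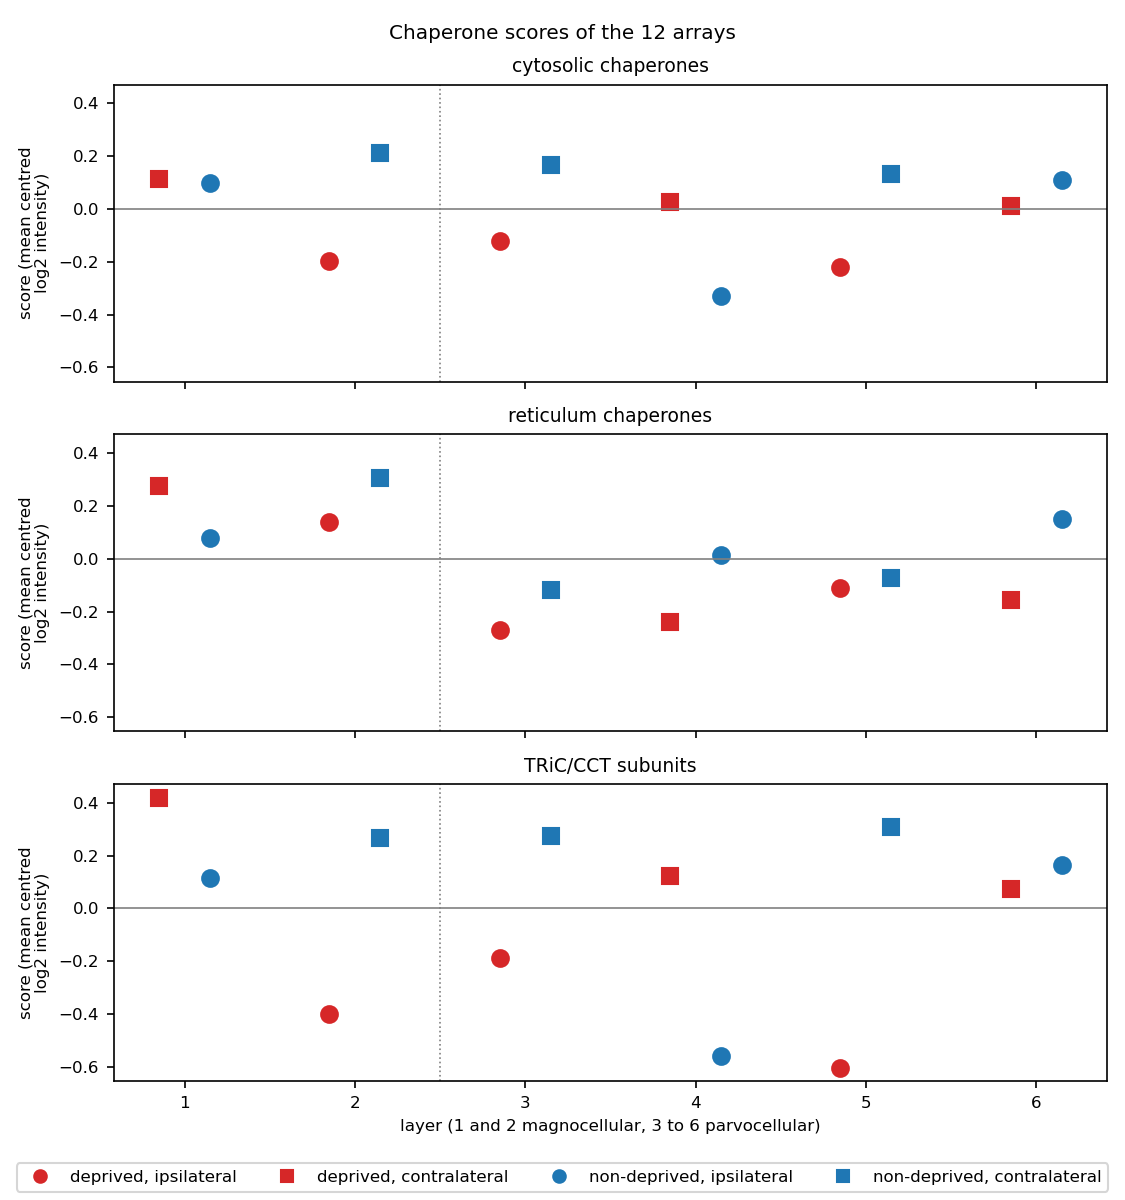
Score of cytosolic chaperones, reticulum chaperones and TRiC/CCT subunits (mean centred log2 intensity, vertical axis) on each array by layer (horizontal axis), with deprived arrays in red left of non-deprived arrays in blue, circles ipsilateral and squares contralateral. The TRiC/CCT score is lowest on the ipsilateral arrays of layers 5, 4 and 2 (-0.60, -0.56 and -0.40), and the reticulum score is above 0 on all 4 magnocellular arrays.

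HSPA4, a nucleotide exchange factor of the HSP110 family, had log2 differences of -0.23 for deprivation, 0.40 for cell class and -0.37 for hemisphere. Its second tested probe set had the opposite sign for cell class and for hemisphere. PDIA4, a disulfide isomerase, had 0.07, 0.15 and 0.15 for the same comparisons, and neither gene passed in any of them. Where a gene had several tested probe sets they often differed. Of 14 such genes, 9 had probe sets of opposite sign for deprivation, 7 for cell class and 7 for hemisphere, CANX and HSP90AA1 among them in all 3 comparisons. Other genes of the folding pathways were taken from a wider list of heat shock factors, further chaperones, the unfolded protein response and reticulum quality control, and none of them passed in any of the 3 comparisons. Of the 4 heat shock factors and regulators only HSBP1 was tested, with changes of 0.17 for deprivation, 0.06 for cell class and -0.38 for hemisphere. For deprivation, 18 of 27 further cytosolic chaperones and all 6 further mitochondrial chaperones were lower in deprived layers, with medians of -0.17 and -0.22, while 6 of 9 unfolded protein response genes were higher (median 0.20) and 13 of 21 further reticulum genes were lower (median -0.10). DNAJC7, a J-protein with tetratricopeptide repeats, had medians of 1901.3 in deprived and 3156.4 in non-deprived layers (-0.96 ± 0.28, adjusted p = 0.192). FKBP4, an immunophilin partner of HSP90, had 3658.55 and 5701.1 in the same groups (-0.50 ± 0.17, adjusted p = 0.264). Higher in deprived layers were CHORDC1, an HSP90 partner (0.60 ± 0.23, adjusted p = 0.315), and HSPA4L, an HSP110 (0.43 ± 0.20, adjusted p = 0.395).

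For cell class, 12 of 27 further cytosolic, 2 of 6 mitochondrial, 5 of 9 unfolded protein response and 11 of 21 reticulum genes of that wider list were higher in magnocellular layers. DNAJA4 (-0.94 ± 0.35, adjusted p = 0.23) and DDIT3, the stress transcription factor CHOP (-0.84 ± 0.32, adjusted p = 0.246), were lower in magnocellular layers, and SEL1L, part of the reticulum degradation complex (0.48 ± 0.18, adjusted p = 0.235), and TTC1 (0.55 ± 0.21, adjusted p = 0.236) were higher. For hemisphere, 14 of 27, 4 of 6, 3 of 9 and 7 of 21 genes of the same lists were lower ipsilaterally. DNAJC7 (-0.97 ± 0.28, adjusted p = 0.114) and VCP, an unfoldase of reticulum degradation (-0.46 ± 0.14, adjusted p = 0.123), were lower ipsilaterally, and DNAJB5 (0.70 ± 0.22, adjusted p = 0.127) and HYOU1, an HSP110 of the reticulum (0.54 ± 0.17, adjusted p = 0.128), were higher. The median ipsilateral change was -0.01 for the further cytosolic chaperones, against -0.46 for TRiC/CCT.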

How the data were processed

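The deposited table held 1 linear intensity per probe set and array, scaled by the authors before deposit as the values show: trimmed means (2% off each end) lay between 1500.454 and 1500.605. The software behind the intensity values is not given in the sources used here. Intensities were raised to the pooled 20th percentile (110.8) and log2 was taken. Probe sets with a mean log2 value at or above the median, without 68 controls, were tested (11105). The linear model was fitted with limma 3.58.1 (R 4.3.3; lmFit, then eBayes with an intensity trend, two-sided), with deprivation, cell class and hemisphere as terms over 12 arrays (8 residual degrees of freedom, 7 with an interaction), and were checked on simulated data. The number of arrays limits the precision.

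Members and lists were chosen with earlier results of these data known. Named were the 4 members of smallest p per direction and comparison, 12 fixed genes of which HSPA8 had no probe set of its own, and the 2 other pathway genes of smallest p per direction; further members named add detail. Alternatives were quantile normalization, median centring, no filter, no trend, a floor of 16, model terms left out, layer number as a block, single arrays left out, RNA quality, parvocellular layers alone, all probe sets of a gene and, added after seeing the data, the ACTB ratio and the oligodendrocyte marker level. No sequence or coordinate was used here.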

Additional observations from a re-analysis of the deposited data

Results flagged for a closer look

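In 13 of 84 groups of member intensities and scores (15.5%), a single array stood apart from the other 5. Its gap to the next array was beyond Dixon's 95% critical value. Intensities were taken on the linear scale, and each group held both cell classes and both sides. The rate over all probe sets was not taken, so whether 15.5% is high for these members cannot be told. These groups share arrays and members and are not independent.

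Non-deprived ipsilateral layer 4 was low in 7 of the 13. On it CCT7 was at 6415.9, against 11163.8 for the next non-deprived layer, HSPD1 at 17810.5, against 25797.9, and HSP90B1 at 387.3, against 733.1. The scores of that array were -0.23 over all members, -0.33 over cytosolic chaperones, -0.56 over TRiC/CCT and -0.25 over cytosolic chaperones without TRiC/CCT, while the next lowest non-deprived arrays were at 0.07, 0.10, 0.12 and 0.07. Its GAPDH ratio was the highest of the non-deprived arrays, 5.65. The part of RNA quality in these values was not tested.

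Among deprived arrays, HSP90AA1 was low in ipsilateral layer 3 (41320.3, next 63506.3) and CCT3 in ipsilateral layer 2 (5343.4, next 8123.1). HSPD1 was high in deprived contralateral layer 1 (34511.6, next 24091.6) and CALR in deprived ipsilateral layer 5 (8238.3, next 5136.7). In non-deprived ipsilateral layer 1, DNAJA1 was low (3133.2, next 4067.2) and PDIA3 high (7868.6, next 4049.6).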

How the results depend on the processing

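For deprivation, the count of member probe sets past the threshold was 0 under all 25 alternatives tried. The other counts differed from 0 only when 1 array was left out: 0 to 2 for cell class, 0 to 9 for hemisphere and 0 to 1 for the interaction of deprivation with cell class. Those arrays were non-deprived layer 6 (2 and 9 calls), non-deprived layer 4 (1) and deprived layer 1 (1). Of 544 values of named changes under alternatives, 534 kept their direction and side of the threshold, 5 newly passed (HSPA5 at 1.00 for cell class, and CCT5, HSP90AB1, CCT2 and CCT4 at -1.01, -0.71, -0.68 and -0.58 for hemisphere, all without non-deprived layer 6) and 5 reversed. Under median centring the hemisphere differences of DNAJB9, CALR and HSPA2 were -0.035, -0.0064 and -0.14, each moved by the offset that centring gave the median of all probe sets. With the ACTB ratio as a covariate BAG5 for cell class was 0.086 and HSPA2 for hemisphere -0.022. The cause of the 2 reversals with the ACTB ratio was not tested.

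Of 286 score differences, 277 moved by less than the residual SD. Under median centring the deprivation differences were -0.27 for all members, -0.26 for cytosolic and -0.26 for reticulum chaperones, and the hemisphere differences -0.48, -0.54, -0.32 and, for TRiC/CCT, -0.81. With the ACTB ratio, the cytosolic difference for cell class was 0.23 and cytosolic minus reticulum -0.017.

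Same-numbered layers did not deviate together (correlations of -0.25 to -0.0016, 0 of 6 over 0.1, and 0 of 6 best with their own number), so the layer numbers were not treated as pairs. With layer number as a replicate block, 0 member probe sets passed for deprivation, hemisphere and cell class, and the adjusted p by limma was 0.241 for BAG3, 0.143 for CCT5 and 0.128 for HSPA5. The effects of input eye and of deprivation by side cannot be told apart, and 12 arrays of an unknown number of animals limit all values.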
